A study of Homo sapiens with 12 samples.

Results

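The 10 genes described here belong to the extrinsic apoptosis pathway and were followed in RT4 cells, a line from a human bladder tumour: the ligand TNFSF10, the death receptors FAS, TNFRSF10A and TNFRSF10B, the adaptor FADD, the initiator caspase CASP8, its inhibitor CFLAR, and the inhibitor of apoptosis genes BIRC2, BIRC3 and XIAP. They were listed by symbol, and all 10 were found by Ensembl identifier among the 61757 genes that both count tables share. All 10 passed the filter on low counts in both experiments, so no member is missing from any comparison. The study asked how ITGB4, an integrin subunit of epithelial attachment to the basement membrane, bears on the response to cisplatin. In the overexpression experiment, cells given an ITGB4 plasmid (Flag_ITGB4, 3 libraries) were set against cells given the empty vector (Flag_EV, 3 libraries). Both of those groups were grown in a medium labelled Mycoy' s 5A with fetal bovine serum, and both carry the label "transfection infection". In the resistance experiment, 3 libraries of a cisplatin-resistant line, labelled WT with cisplatin treatment, were set against 3 libraries of parental cells, labelled WT with PBS treatment, and both were grown in MEM with fetal bovine serum. The labels give no dose, no time since treatment, and nothing on whether the resistant line is a clone.

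Death receptors are membrane proteins of the tumour necrosis factor receptor superfamily. When FASLG binds FAS, or when TNFSF10 (known as TRAIL) binds TNFRSF10A or TNFRSF10B, the receptor tail recruits FADD, and FADD recruits CASP8, which cleaves itself into its active form and then cleaves the executioner caspases and BID. CFLAR (known as FLIP) resembles CASP8 but lacks its protease activity, and it competes for the same complex. BIRC2 and BIRC3 are ubiquitin ligases that act on RIPK1 at the tumour necrosis factor receptor, and XIAP binds and inhibits caspases directly.

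The total count was 22701466 to 33352045 per library in the overexpression experiment and 31824582 to 38199946 in the resistance experiment. ITGB4 itself stood at 869 ± 10.97 CPM (the count scaled to a fixed library total with TMM factors, mean ± SD, n = 3 libraries here and throughout) in vector cells and 1427 ± 53.6 CPM in plasmid cells, and at 600.0 ± 2.09 and 837 ± 9.37 CPM in parental and resistant cells. Of 10 urothelial markers, 8 were above 1 CPM in all 4 groups, while UPK1A was below 1 CPM and KRT20 was listed at 0. All 4 leukocyte markers, PTPRC among them, were below 1 CPM in every group. Of 3 endothelial markers, PECAM1 and CDH5 were below 1 CPM in every group. The third, VWF, held 2.06, 1.38, 1.22 and 1.14 CPM in vector, plasmid, parental and resistant cells. Of 4 fibroblast markers, DCN and LUM were at or near 0 in every group. COL3A1 held 45.93, 18.15, 0.0558 and 0.3866 CPM in vector, plasmid, parental and resistant cells. COL1A1 held 4.05, 6.889, 11.67 and 4.668 CPM in the same order. The means of COL3A1 and COL1A1 thus moved in opposite directions in both experiments. The 2 experiments were counted separately and differ in medium, so levels are set side by side across them without a test.

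In ITGB4 plasmid cells, 8 of the 10 genes were higher than in vector cells and 2, TNFRSF10B and XIAP, were lower. In resistant cells, 8 were lower than in parental cells, TNFRSF10B was higher, and XIAP did not pass the test. The same 8 genes that were higher with the plasmid were lower in resistant cells: TNFSF10, FAS, TNFRSF10A, FADD, CASP8, CFLAR, BIRC2 and BIRC3. Calls rest on edgeR's quasi-likelihood test at a Benjamini-Hochberg adjusted p under 0.05 over all genes tested. By that rule 72.2% of 16950 genes were called in the overexpression experiment, 36.5% higher and 35.7% lower. In the resistance experiment 54.5% of 16875 genes were called, 26.8% higher and 27.7% lower. A gene called higher with the plasmid and lower in resistant cells was 16.6% of the 15655 genes tested in both. The median log2 fold change of the 10 was 0.52 with the plasmid, against 0.002 over all genes, and -0.50 in resistant cells, against 0.018 over all genes. The biological coefficient of variation was 2.65% in the overexpression experiment and 6.97% in the resistance experiment, so smaller changes pass in the former. Since these are bulk libraries, fewer cells that express a gene and less RNA per cell cannot be told apart.

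**Figure D1:**
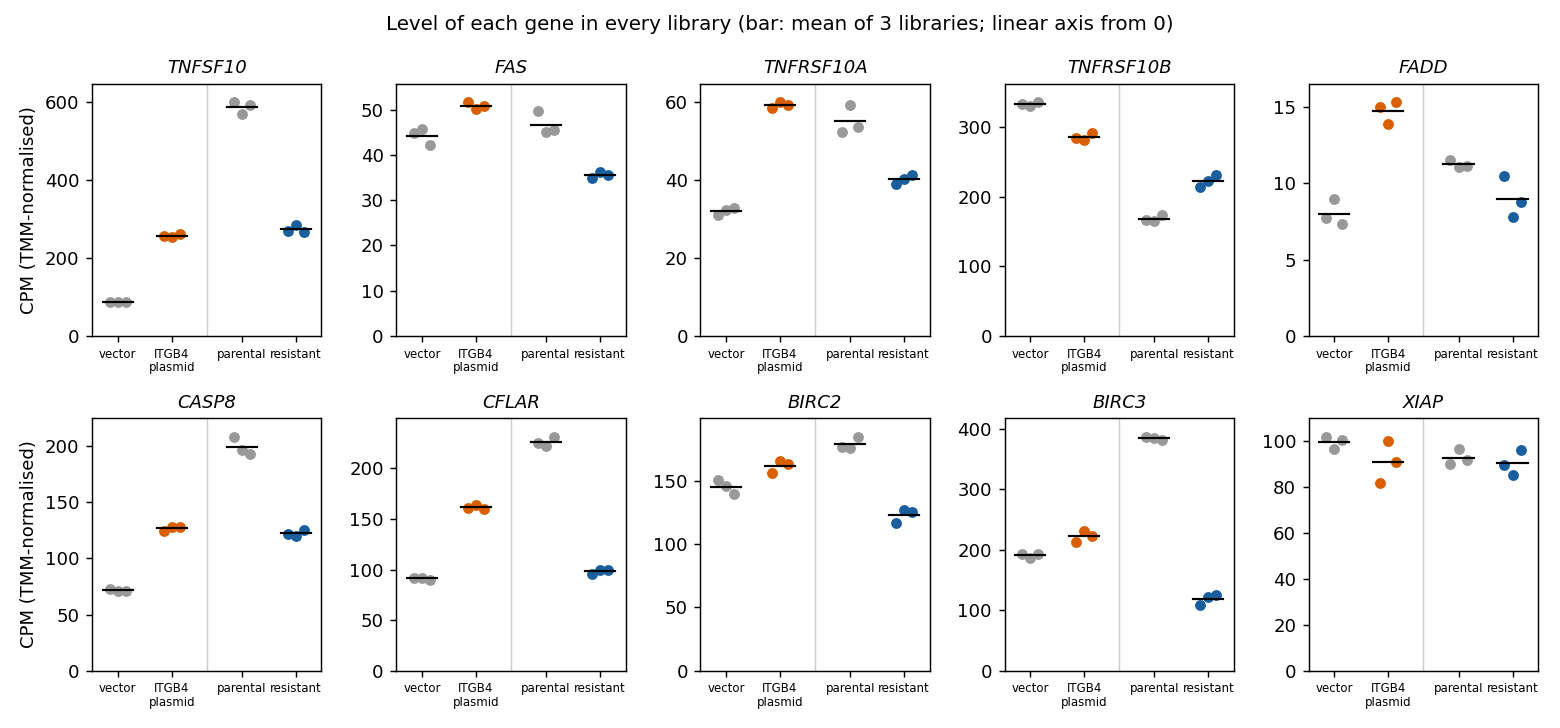
Normalised level (CPM, linear axis from 0) of each of the 10 genes in all 12 libraries, with points for libraries and a bar for the mean of 3; control groups are grey, ITGB4 plasmid orange and resistant blue. TNFSF10 stands at 256, 255 and 262 CPM with the plasmid, above 86.0 to 87.7 with vector, while XIAP overlaps in both experiments.

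TNFSF10 (ENSG00000121858), the ligand of TNFRSF10A and TNFRSF10B, had the largest rise of the 10 with the plasmid. It lies on the minus strand of chromosome 3 at 172505508 to 172523507 (GRCh38). The vector libraries held 87.7, 86.1 and 86.0 CPM and the plasmid libraries 256, 255 and 262 CPM. The plasmid libraries all lay far above the vector libraries, a 2.98-fold difference (log2 fold change 1.57 ± 0.028, SE; edgeR adjusted p = 1.33e-17). In the resistance experiment the parental libraries held 599.9, 571 and 593 CPM and the resistant libraries 269, 285 and 266 CPM. The resistant libraries were all below every parental library, by 2.15-fold (log2 fold change -1.10 ± 0.040; edgeR adjusted p = 2.87e-13). The plasmid level and the resistant level were thus near each other, while the vector and parental controls stood at 86.6 and 588 CPM.

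The promoter stretch of TNFSF10 is shown because this gene moved most with the plasmid, and because it was searched for a sequence that interferon regulatory factors are known to bind. The stretch is chr3:172523508-172523680 on the minus strand, taken from the RefSeq window on GRCh38.p14 and cut to the bases outside the gene's exons. Capitals mark a match on the opposite strand, 187 to 178 bases before the RefSeq start, to the interferon response element core (GAAA, any 2 bases, GAAA), which reads GAAACTGAAA there. Of 35116 RefSeq promoter windows, 3.57% hold that core on either strand.
TNFSF10: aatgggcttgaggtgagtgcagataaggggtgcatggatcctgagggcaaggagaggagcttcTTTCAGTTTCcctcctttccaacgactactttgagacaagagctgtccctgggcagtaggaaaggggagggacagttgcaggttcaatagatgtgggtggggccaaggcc

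FAS (ENSG00000026103, chromosome 10, 88990582 to 89015785, plus strand), the receptor of FASLG, moved less. Vector libraries held 44.8, 45.6 and 42.1 CPM and plasmid libraries 51.6, 50.1 and 50.8 CPM. The groups did not overlap, and the difference was 1.15-fold (log2 0.20 ± 0.039; edgeR adjusted p = 0.000192). Parental libraries held 49.6, 45.0 and 45.4 CPM and resistant libraries 35.0, 36.1 and 35.4 CPM. All resistant libraries were lower, by 1.31-fold (log2 -0.40 ± 0.062; edgeR adjusted p = 3.5e-05). FASLG, its ligand, was not tested in either experiment, with a mean of at most 0.0213 CPM in any group. Exons of ACTA2 on the other strand cover 8.93% of the exon bases of FAS, and ACTA2 held 76 to 172 counts per library in the overexpression experiment and 31 to 98 in the resistance experiment.

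FAS was searched for the kappa-B core (GGG, any 3 bases, TTCC) and for the 10-letter kappa-B consensus, a different pattern given here by name, which are sequences that NF-kappa-B is known to bind. RefSeq gives 3 windows for FAS, of which 2 held no match. The other window held a match to the consensus only, on the strand of the gene, 157 to 148 bases before the RefSeq start and inside a 5-prime exon. Matches to the core and to the consensus can overlap. The core is held by 6.52% and the consensus by 5.91% of all windows, shares per window that do not allow for a gene with several. Capitals mark the match in chr10:88991264-88991293, plus strand, GRCh38.p14.
FAS: ggtcgctggaGGGGGACCCCggttggagag

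The receptors of TNFSF10 moved in opposite directions to each other in both experiments. TNFRSF10A (ENSG00000104689) stood at 31.1, 32.4 and 32.9 CPM with vector and at 58.7, 60.02 and 59.3 CPM with the plasmid. Every plasmid library was above every vector library, a 1.84-fold difference (log2 0.88 ± 0.037; edgeR adjusted p = 1.33e-12). In parental cells TNFRSF10A held 52.4, 59.3 and 53.7 CPM, and in resistant cells 39.1, 40.3 and 41.2 CPM. It was 1.37-fold lower in resistant cells, with no overlap (log2 -0.45 ± 0.062; edgeR adjusted p = 7.04e-06).

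TNFRSF10B (ENSG00000120889) was the member with the opposite pattern. Vector libraries held 334, 331 and 336 CPM and plasmid libraries 285, 282 and 292 CPM. It was 1.16-fold lower with the plasmid in all 3 libraries (log2 -0.22 ± 0.025; edgeR adjusted p = 5.96e-07). Parental libraries held 167, 165 and 173 CPM and resistant libraries 214, 223 and 231 CPM. It was 1.32-fold higher in resistant cells, again with no overlap (log2 0.41 ± 0.043; edgeR adjusted p = 3.89e-07). Both genes lie on the minus strand of chromosome 8, TNFRSF10A at 23190452 to 23225126 and TNFRSF10B at 23020133 to 23069179, 121272 bases apart. Antisense or opposite-strand exons cover 9.01% and 7.59% of TNFRSF10A (AC100861.1 and TNFRSF10A-AS1) and 1.3% of TNFRSF10B (RHOBTB2). AC100861.1 had 108 to 157 counts per library in the overexpression experiment and 168 to 286 in the resistance experiment, and TNFRSF10A-AS1 had 64 to 124 and 140 to 166. RHOBTB2 had 1663 to 3343 and 2197 to 2654. Their part in the values of TNFRSF10A and TNFRSF10B was not tested.

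Of the decoy receptors, which bind TNFSF10 without a working death domain, TNFRSF10C was listed at 0 in every library. TNFRSF10D rose from 8.58 ± 0.603 to 25.4 ± 0.669 CPM with the plasmid (2.95-fold; edgeR adjusted p = 7.02e-13). It also rose in resistant cells, from 7.54 ± 1.18 to 16.5 ± 0.505 CPM (2.18-fold; edgeR adjusted p = 1.61e-07). Thus this decoy was higher in both treated groups, which no member of the 10 was.

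FADD (ENSG00000168040), the adaptor that links receptor to caspase, was the least abundant of the 10 in CPM. It lies on chromosome 11 at 70203163 to 70207390, plus strand. Vector libraries held 7.76, 8.98 and 7.34 CPM and plasmid libraries 15.03, 13.9 and 15.3 CPM. The plasmid libraries were all higher, by 1.84-fold (log2 0.88 ± 0.081; edgeR adjusted p = 3.8e-08). Parental libraries held 11.5, 11.1 and 11.2 CPM and resistant libraries 10.5, 7.78 and 8.78 CPM. The groups did not overlap and the difference was 1.25-fold (log2 -0.33 ± 0.11; edgeR adjusted p = 0.023). This call was lost without parental library a (edgeR adjusted p = 0.0655) or c (0.0504), without resistant library 2 (0.125) or 3 (0.0519), and with scaling by library size alone (0.238) or by the upper quartile (0.115). An antisense gene, AP000879.1, covers 54.9% of FADD's exon bases and was listed at 0 counts in every library. How reads in the shared bases were assigned was not examined, so this 0 does not show that FADD's counts are unaffected.

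CASP8 (ENSG00000064012, chromosome 2, 201233443 to 201287711, plus strand) encodes the initiator caspase of the pathway. Vector libraries held 72.9, 71.3 and 70.7 CPM and plasmid libraries 125, 128 and 128 CPM. All plasmid libraries were higher, by 1.77-fold (log2 0.83 ± 0.030; edgeR adjusted p = 1.72e-13). Parental libraries held 208, 197 and 193 CPM and resistant libraries 122, 119.9 and 125 CPM. All resistant libraries were lower, by 1.63-fold (log2 -0.70 ± 0.044; edgeR adjusted p = 4.88e-10).

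CFLAR (ENSG00000003402, chromosome 2, 201116104 to 201176687, plus strand), the caspase-like inhibitor, moved with CASP8 in the overexpression experiment. Vector libraries held 92.1, 92.0 and 89.6 CPM and plasmid libraries 161, 164 and 159.6 CPM. The plasmid libraries were all higher, by 1.77-fold (log2 0.82 ± 0.029; edgeR adjusted p = 9.21e-14). Parental libraries held 225, 222 and 231 CPM and resistant libraries 95.7, 99.8 and 99.5 CPM. All resistant libraries were lower, by 2.299-fold (log2 -1.20 ± 0.042; edgeR adjusted p = 2.27e-13). CFLAR-AS1 and a pseudogene on the other strand cover 3.45% and 6.6% of its exon bases and held at most 52 and 21 counts in any library.

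CASP10, a caspase close to CASP8 in sequence and role, lies between CFLAR and CASP8, 6193 bases from the former and 4036 from the latter. It rose from 37.3 ± 1.62 to 84.5 ± 1.68 CPM with the plasmid (2.27-fold; edgeR adjusted p = 3.03e-14). It fell from 112 ± 6.14 to 56.4 ± 1.92 CPM in resistant cells (1.98-fold; edgeR adjusted p = 5.65e-11). All 3 neighbours on this stretch of chromosome 2 were therefore higher with the plasmid and lower in resistant cells.

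The CFLAR promoter is shown because the CFLAR transcript had a fall over 2-fold in resistant cells and 1 of its 4 RefSeq windows held a match to the kappa-B core described for FAS, while the other 3 held none. The match lies on the strand of the gene, 97 to 88 bases before the RefSeq start, inside a 5-prime exon, and also meets the consensus. Capitals mark it in chr2:201118609-201118638, plus strand, GRCh38.p14.
CFLAR: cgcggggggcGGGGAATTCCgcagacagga

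BIRC3 (ENSG00000023445, chromosome 11, 102317450 to 102339403, plus strand), a ubiquitin ligase known as an NF-kappa-B target, had the largest fall of the 10 in resistant cells. Parental libraries held 386, 385 and 382 CPM and resistant libraries 109, 121 and 124 CPM. The resistant libraries were all lower, by 3.25-fold (log2 -1.70 ± 0.048; edgeR adjusted p = 1.53e-14). With the plasmid its change was small: vector libraries held 193, 187 and 194 CPM and plasmid libraries 213, 231 and 223 CPM. The plasmid libraries were all higher, by 1.16-fold (log2 0.22 ± 0.031; edgeR adjusted p = 8.41e-06).

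BIRC2 (ENSG00000110330, chromosome 11, 102347211 to 102378670, plus strand), the paralog 7807 bases downstream of BIRC3, moved the same way by less in resistant cells. Vector libraries held 150.5, 146 and 139.9 CPM and plasmid libraries 156, 166 and 163 CPM. The lowest plasmid library stood just above the highest vector library, and the difference was 1.11-fold (log2 0.16 ± 0.033; edgeR adjusted p = 0.000436). Parental libraries held 177, 176 and 185 CPM and resistant libraries 116, 127 and 126 CPM. All resistant libraries were lower, by 1.45-fold (log2 -0.54 ± 0.046; edgeR adjusted p = 2.46e-08).

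The BIRC3 promoter is shown because BIRC3 fell most in resistant cells. Its stretch outside exons, chr11:102317234-102317449 on the plus strand (RefSeq, GRCh38.p14), held 2 matches on the opposite strand, in capitals. The match at 199 to 190 bases before the RefSeq start meets both the kappa-B core and the consensus and reads GGGGATTTCC. The match at 135 to 126 meets the consensus only and reads GGGGAACTCC.
BIRC3: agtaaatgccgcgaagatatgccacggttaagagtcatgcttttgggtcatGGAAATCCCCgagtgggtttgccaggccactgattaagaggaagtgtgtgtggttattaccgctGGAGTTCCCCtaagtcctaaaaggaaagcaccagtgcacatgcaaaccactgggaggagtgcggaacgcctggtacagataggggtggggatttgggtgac

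RefSeq windows were found for 8 of the 10 genes, and 4 of them (TNFSF10, FAS, CFLAR and BIRC3) were searched over 9 windows. Every window was searched for the interferon core, the kappa-B core and the consensus, and 4 windows held a match. TNFSF10 held no kappa-B match, and FAS, CFLAR and BIRC3 held no interferon core. The share of all windows holding any of these was not computed, so 4 of 9 has nothing to be set against. A match describes letters only, and no binding was measured.

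XIAP (ENSG00000101966, chromosome X, 123859724 to 123913979, plus strand), the direct caspase inhibitor, moved least. Vector libraries held 102, 96.4 and 100.2 CPM and plasmid libraries 81.8, 99.9 and 90.7 CPM. Plasmid library 2 lay within the vector range, so the groups overlapped. XIAP passed as lower with the plasmid (log2 -0.13 ± 0.050; edgeR adjusted p = 0.0302), but not without plasmid library 1 (edgeR adjusted p = 0.11) or 3 (0.0799), nor without vector library 1 (0.0986) or 3 (0.0764). Parental libraries held 89.9, 96.4 and 91.7 CPM and resistant libraries 89.6, 85.2 and 96.0 CPM. The groups overlapped, and the log2 difference of -0.04 had a 95% interval of -0.15 to 0.07 (edgeR adjusted p = 0.576). Its sign depended on scaling, being 0.13 with library sizes alone and 0.07 with upper quartile factors.

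**Figure D2:**
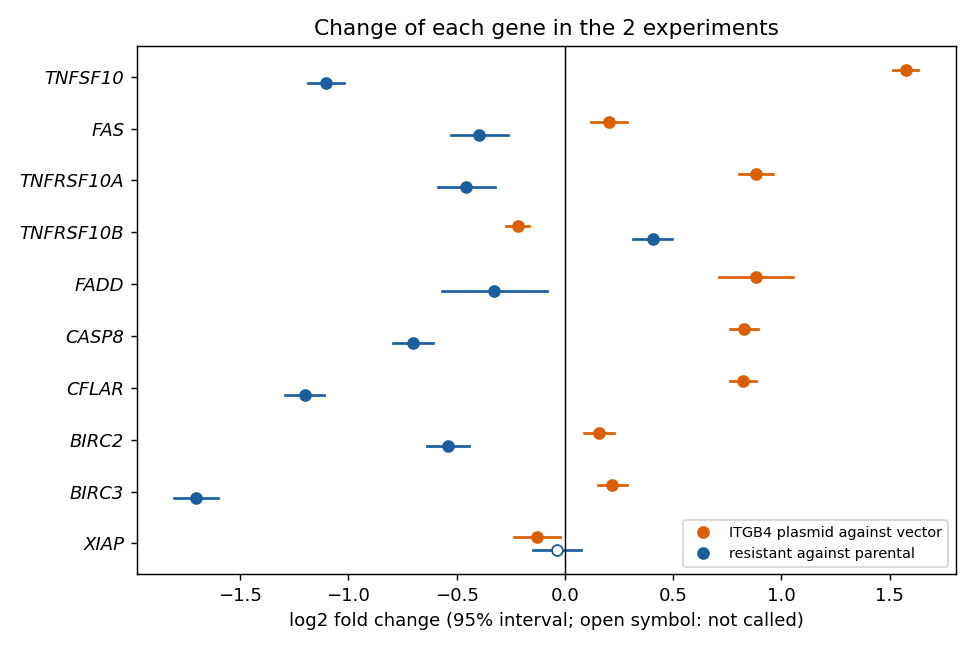
Log2 fold change of each gene with its 95% interval, ITGB4 plasmid against vector in orange and resistant against parental in blue, with an open symbol where the gene was not called. TNFSF10 reaches 1.57 with the plasmid and BIRC3 reaches -1.70 in resistant cells, while XIAP lies near 0 in both.

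The changes in the 2 experiments were set against each other in a fit of all 12 libraries, as the difference of the 2 log2 fold changes (plasmid minus resistant). By edgeR's quasi-likelihood test this difference was called for 61.8% of 18516 genes and for 9 of the 10 members. It was 2.65 ± 0.049 for TNFSF10 (adjusted p = 4.19e-20), 2.00 ± 0.048 for CFLAR (adjusted p = 2.52e-18) and 1.90 ± 0.060 for BIRC3 (adjusted p = 2.61e-16). It was negative only for TNFRSF10B among the called, at -0.65 ± 0.048 (adjusted p = 2.27e-10). For XIAP it was -0.12 with a 95% interval of -0.28 to 0.05 (adjusted p = 0.221). Which experiment a gene moved more in also varied. The rise of FADD with the plasmid (0.88) was larger in size than its fall in resistant cells (-0.33), and the reverse held for BIRC3 (0.22 and -1.70).

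Scaling bears on the sizes in the resistance experiment. With library sizes alone, the median log2 fold change of all genes was 0.18 in place of 0.018, and 67.8% of called genes were higher in place of 49.1%. With upper quartile factors these were 0.12 and 61.65%. The 7 members called lower other than FADD kept both direction and call under those scalings, and the smallest sizes, with library sizes alone, were -0.23 for FAS and -0.29 for TNFRSF10A. In the overexpression experiment no scaling moved the median of all genes by more than 0.1.

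Ratios of 2 members within a library do not depend on scaling. In all, 10 were tested by an exact two-sided permutation test, whose smallest p with 3 against 3 libraries is 0.1, or 0.143 after adjustment over the 10, so none could pass. CFLAR over CASP8, the inhibitor against the caspase it resembles, was 1.26, 1.29 and 1.27 in vector libraries and 1.29, 1.28 and 1.25 in plasmid libraries. Those groups overlapped (exact permutation p = 1), although each gene had risen 1.77-fold. In parental libraries it was 1.082, 1.13 and 1.1995, and in resistant libraries 0.784, 0.833 and 0.793. All resistant libraries were lower, by 1.41-fold (exact permutation p = 0.1).

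TNFRSF10B over TNFRSF10A was 10.7, 10.2 and 10.2 with vector and 4.86, 4.70 and 4.93 with the plasmid, 2.15-fold lower with no overlap (exact permutation p = 0.1). It was 3.18, 2.78 and 3.22 in parental libraries and 5.48, 5.52 and 5.61 in resistant libraries, 1.81-fold higher with no overlap (exact permutation p = 0.1). BIRC3 over BIRC2 was 1.32 ± 0.0587 with vector and 1.37 ± 0.0165 with the plasmid, and these overlapped (exact permutation p = 0.3). It was 2.19, 2.19 and 2.07 in parental and 0.933, 0.955 and 0.989 in resistant libraries, so BIRC3 had more counts than BIRC2 in all parental libraries and fewer in all resistant libraries.

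XIAP over BIRC2 went from 0.685 ± 0.0282 to 0.561 ± 0.0399 with the plasmid and from 0.518 ± 0.0266 to 0.735 ± 0.0552 in resistant cells, without overlap either time (exact permutation p = 0.1 each). FADD over CASP8 was 0.112 ± 0.0121 with vector and 0.116 ± 0.0067 with the plasmid, with overlap (exact permutation p = 0.7). It was 0.0566 ± 0.00125 in parental and 0.0736 ± 0.0109 in resistant libraries, without overlap (exact permutation p = 0.1). Of the 5 ratios, 3 overlapped between vector and plasmid cells and 0 between parental and resistant cells. The share of other gene pairs without overlap was not computed, so these counts are a description of the 5 alone.

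**Figure D3:**
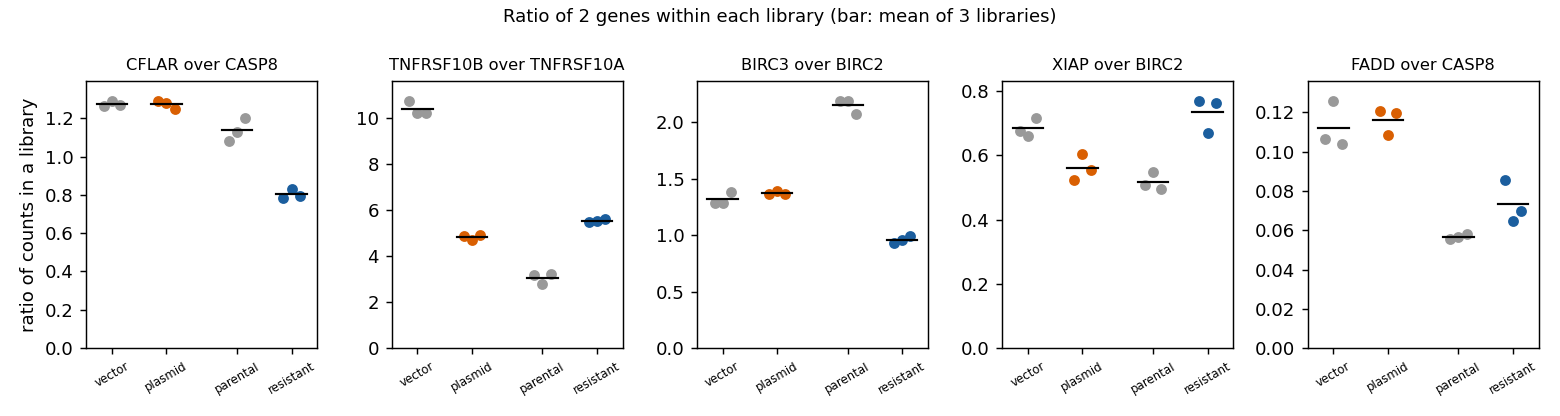
Ratio of the counts of 2 genes within each library (linear axes from 0), with points for libraries and a bar for the mean of 3. CFLAR over CASP8 overlaps between vector and plasmid near 1.27 and drops to 0.784 to 0.833 in resistant libraries.

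To compare levels between genes, CPM was divided by the kilobases of merged exons. TNFRSF10B led in vector cells at 64.6 ± 0.526 CPM per kilobase, above BIRC2 at 32.1 ± 1.17. BIRC3 (25.4 ± 0.513) and TNFSF10 (24.9 ± 0.267) followed with overlapping ranges. XIAP, TNFRSF10A, FAS and CASP8 lay between 9.89 and 11.02 with each overlapping the next, and FADD (4.36 ± 0.462) and CFLAR (4.05 ± 0.0621) were lowest and overlapped. With the plasmid, TNFSF10 led at 74.1 ± 1.15, above TNFRSF10B at 55.6 ± 0.977. BIRC2 (35.7), BIRC3 (29.6), TNFRSF10A (20.1), CASP8 (17.5), FAS (11.9), XIAP (10.1), FADD (8.01) and CFLAR (7.17) followed in that order of CPM per kilobase, with no neighbours overlapping.

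In parental cells TNFSF10 led by far at 169 ± 4.34 CPM per kilobase, above BIRC3 at 51.1 ± 0.297 and BIRC2 at 39.5 ± 1.07. TNFRSF10B (32.6), CASP8 (27.5) and TNFRSF10A (18.7) followed, then FAS (10.98), XIAP (10.3) and CFLAR (10.0), whose neighbours overlapped, and FADD (6.12). In resistant cells TNFSF10 still led at 78.8 ± 2.99, above TNFRSF10B at 43.2 ± 1.63 and BIRC2 at 27.1 ± 1.28. CASP8 (16.9), BIRC3 (15.7), TNFRSF10A (13.6), XIAP (10.0) and FAS (8.35) followed without overlap, and FADD (4.89) overlapped CFLAR (4.36). BIRC3 thus stood in the second place in parental cells and in the fifth in resistant cells. Merged exon length counts every annotated exon. CFLAR has 22529 such bases against 1841 for FADD, so a gene with long rarely used exons reads low on this scale. Of FADD's bases, 1011 are shared with AP000879.1, and how reads there were assigned was not examined. FADD's low place in this order carries that limit in every group.

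Of 49 other genes of the pathway, grouped by role in 9 lists, 37 could be tested in each experiment. With the plasmid 21 were higher, 13 lower and 3 not called, or 91.9% called against 72.2% of all genes, with a median log2 fold change of 0.17. In resistant cells 7 were higher, 21 lower and 9 not called, or 75.7% called against 54.5% of all genes, with a median of -0.18. Over all genes, 36.5% were higher and 35.7% lower with the plasmid, and 26.8% higher and 27.7% lower in resistant cells. Each single list holds too few genes to be set against those shares, so the counts per list below are a description.

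Among ligands, TNFSF15, which binds TNFRSF25, was the only tested gene and moved opposite to TNFSF10. It fell from 84.8 ± 1.41 to 18.2 ± 0.684 CPM with the plasmid (4.67-fold; edgeR adjusted p = 1.92e-17) and rose from 47.1 ± 3.90 to 87.7 ± 7.87 CPM in resistant cells (1.86-fold; edgeR adjusted p = 7.13e-09). TNF was listed at 0 in every library. TNF, LTA, LTB and DAXX lie in the major histocompatibility region of chromosome 6, and of 182 protein-coding genes there between 29 and 34 Mb, 14.3% reached 1 CPM in the overexpression table and 9.89% in the resistance table, against 61.1% and 60% of genes elsewhere. The low values of these 4 genes are therefore given without a reading.

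Of the 4 other receptors, all were higher with the plasmid, and in resistant cells 2 were lower and 2 were not called. TNFRSF1B, a tumour necrosis factor receptor without a death domain, rose from 6.19 ± 0.167 to 36.0 ± 1.55 CPM with the plasmid (5.81-fold; edgeR adjusted p = 6.77e-16). It fell from 19.1 ± 1.46 to 2.53 ± 0.441 CPM in resistant cells (7.57-fold; edgeR adjusted p = 4.03e-12). TNFRSF25, the receptor of TNFSF15, rose from 3.61 ± 0.177 to 9.78 ± 0.967 CPM with the plasmid (edgeR adjusted p = 8.52e-10). TNFRSF1A, the receptor that signals through TRADD and RIPK1, fell from 292 ± 2.23 to 209 ± 8.53 CPM in resistant cells (edgeR adjusted p = 2.55e-08).

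Of 6 tested adaptors and kinases, 3 were higher and 3 lower with the plasmid, and 1 was higher and 3 lower in resistant cells. FAF1, a FAS-associated factor, fell from 77.0 ± 1.68 to 50.5 ± 0.274 CPM with the plasmid, and TRAF3 fell from 126 ± 1.73 to 88.8 ± 0.709 CPM. In resistant cells TRAF2, which brings BIRC2 and BIRC3 to the receptor, fell from 38.0 ± 2.20 to 28.6 ± 0.905 CPM, and RIPK1 fell from 84.1 ± 4.59 to 71.9 ± 3.00 CPM. Of 9 caspases, BID and apoptosome genes, 3 were higher and 4 lower with the plasmid, while in resistant cells 1 was higher and 7 lower. BID, the substrate through which CASP8 reaches mitochondria, fell from 170.4 ± 4.77 to 98.2 ± 6.06 CPM in resistant cells and was not called with the plasmid (87.5 and 89.2 CPM).

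Of 4 tested further inhibitors, 2 were higher and 2 lower with the plasmid, and 1 was higher and 3 lower in resistant cells. BIRC5 (survivin), which also acts in mitosis, fell from 64.1 ± 3.55 to 40.9 ± 2.55 CPM with the plasmid and from 113 ± 0.596 to 49.1 ± 2.12 CPM in resistant cells. BIRC6 rose from 284 ± 3.01 to 342 ± 4.26 CPM with the plasmid, and FAIM rose from 13.3 ± 1.38 to 19.4 ± 0.642 CPM in resistant cells. Of 3 antagonists of the inhibitors, XAF1, a known interferon-stimulated gene, rose from 122 ± 0.233 to 180.4 ± 1.32 CPM with the plasmid and fell from 192 ± 5.03 to 139 ± 19.1 CPM in resistant cells. DIABLO fell from 4.25 ± 0.462 to 2.76 ± 0.438 CPM with the plasmid, and HTRA2 rose from 11.1 ± 1.58 to 14.9 ± 1.69 CPM in resistant cells.

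Of 7 genes that build or remove ubiquitin chains at these receptors, 4 were higher and 2 lower with the plasmid, and 1 was higher and 3 lower in resistant cells. TNFAIP3 (A20), a known NF-kappa-B target that edits ubiquitin on RIPK1, fell in both, from 494 ± 7.87 to 319 ± 5.92 CPM with the plasmid (edgeR adjusted p = 6.71e-13) and from 295 ± 4.72 to 91.1 ± 2.20 CPM in resistant cells (edgeR adjusted p = 3.11e-15). It thus moved with BIRC3 in resistant cells and opposite to it with the plasmid. SPATA2 rose from 14.6 ± 0.530 to 24.4 ± 1.32 CPM with the plasmid, and OTULIN fell from 61.8 ± 0.892 to 45.7 ± 0.454 CPM in resistant cells.

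The necroptosis genes, which act when CASP8 is inactive, were the list with the largest median with the plasmid (log2 2.88 over 2 tested genes). MLKL, which permeabilises the membrane, rose from 22.1 ± 0.756 to 74.0 ± 2.94 CPM with the plasmid (3.33-fold; edgeR adjusted p = 1.05e-15). It fell from 81.4 ± 1.17 to 30.8 ± 1.22 CPM in resistant cells (2.64-fold; edgeR adjusted p = 8.78e-13). ZBP1, a nucleic acid sensor known to be interferon-stimulated, rose from 1.55 ± 0.122 to 25.4 ± 0.367 CPM with the plasmid (16.3-fold; edgeR adjusted p = 1.28e-16) and fell from 52.0 ± 0.259 to 45.2 ± 2.18 CPM in resistant cells. RIPK3, the kinase that activates MLKL, was too low to test, at 0.0697 CPM or less in every group.

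**Figure D4:**
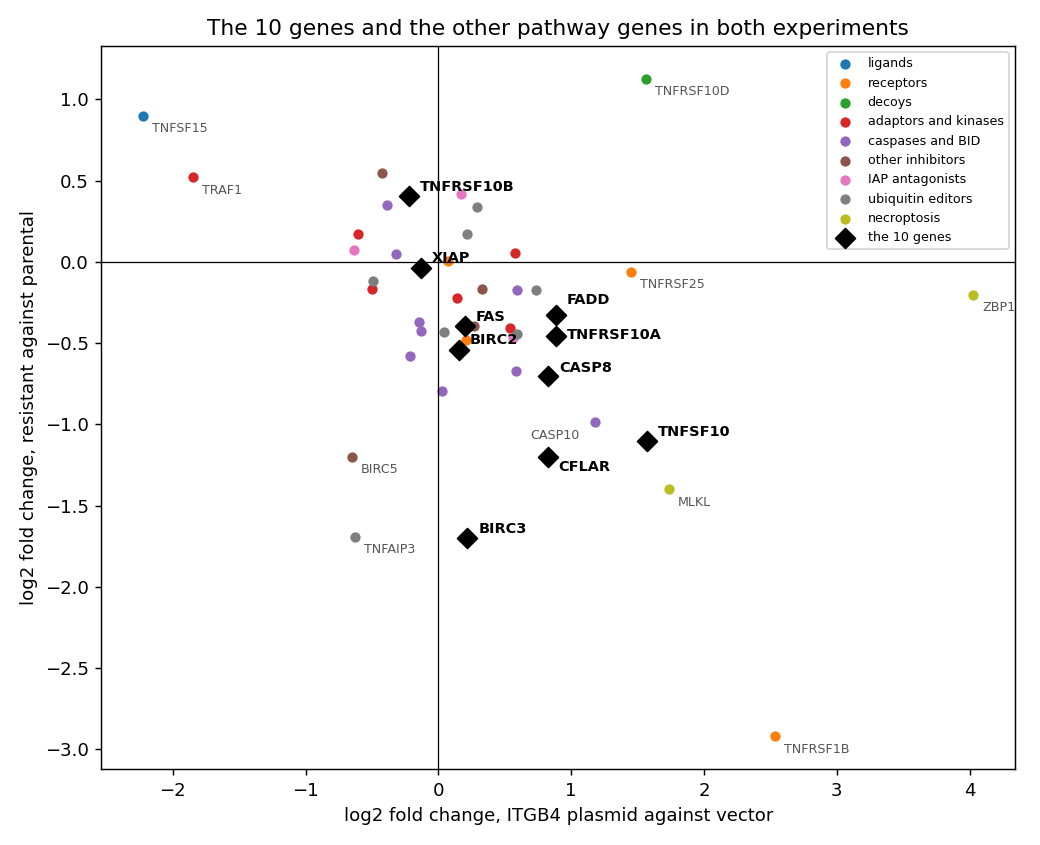
Log2 fold change with the ITGB4 plasmid (horizontal) against that in resistant cells (vertical) for the 10 genes (diamonds) and the 37 tested other pathway genes (circles, coloured by list), with lines at 0. Of the 10, 8 lie at the lower right, TNFRSF10B lies alone among them in the upper left, and TNFRSF10D lies in the upper right.

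The genes whose course over the 12 libraries was most like that of 3 members were found by Pearson correlation of log2 CPM, each library taken against the mean of its own controls, over 11968 protein-coding genes. These libraries fall into 4 groups, so a correlation mostly reflects the group means and is given as a description. For TNFSF10 the closest were SQOR (r = 0.9997) and MOV10 (0.9994). For BIRC3 they were ANLN (0.9992) and ASPM (0.999), which act in cell division and fell by 1.72 and 1.64 on the log2 scale in resistant cells. For CFLAR they were AKR1B10 (0.9992) and STS (0.9991), enzymes of carbonyl and steroid metabolism. The correlation does not weigh the size of a change. Log2 changes with the plasmid and in resistant cells were 2.71 and -1.85 for SQOR and 0.91 and -0.63 for MOV10. Those of TNFSF10 were 1.57 and -1.10. They were 1.45 and -2.19 for AKR1B10 and 1.17 and -1.56 for STS, against 0.82 and -1.20 for CFLAR. BIRC3 stood at -1.70 in resistant cells, near ANLN and ASPM.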

How the data were processed

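The deposited tables hold raw counts per gene for RT4 libraries made from total RNA with a strand-marking kit, per the labels' protocols. Per the file headers, the authors counted the overexpression libraries with featureCounts 2.0.1 on the Ensembl release 107 annotation, with no strand option. For the resistance libraries, the sources used here do not give how reads were aligned, counted and assigned to a strand. The submitters' processing notes name hg38 as the build. Without strand, a gene and an antisense or overlapping partner cannot be told apart.

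Groups came from titles. The parental columns, headed NC, are read as the parental group, since the resistant columns stand beside them in that table. No title holds the name NC alone, so this is inferred, and these libraries are called a, b and c. The labels of libraries 2 and 3 in each overexpression arm name ITGB5 and ITGB6 in the group field, while all titles name ITGB4. Whether replicates are separate cultures is not stated, and the p-values cover the spread between libraries alone, which may be technical.

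Genes passing filterByExpr were tested per experiment with edgeR 4.0.16 (R 4.3.3), TMM factors and the quasi-likelihood test. The standard error is the log2 fold change over the square root of F. The difference between experiments was fitted over 12 libraries with 4 group means. Symbols matched 61757 of 61860 and 62700 of 62700 identifiers. Positions, counted from 1, and merged exon lengths are those of GENCODE 29. The scripts were tested on simulated data.

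Alternatives were other scaling factors, other filters on low counts, DESeq2 1.42.0, limma-voom 3.58.1, a test of changes over 1.5-fold (glmTreat), a joint fit, a replicate block and leaving out each library. The members and the lists were chosen with earlier results of these data known. Named pathway genes are, per list and experiment, the up to 2 called genes with the smallest p at a mean of at least 1 CPM, and other genes were named after their values were seen. A gene that this rule names is not reported here. Same-numbered vector and plasmid libraries did not deviate together (correlations -0.0492, -0.0729 and -0.0562 over 9496 genes). These values give no sign of pairing by number but cannot exclude it.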

Additional observations from a re-analysis of the deposited data

Results flagged for a closer look

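For 9 of the 10 genes the log2 fold change with the ITGB4 plasmid differed from that in resistant cells, in a test of the difference itself (edgeR's quasi-likelihood test over all 12 libraries), which 61.8% of all tested genes also passed. The difference, plasmid minus resistant, was 0.57 for FAS (adjusted p = 4.68e-07), 1.31 for TNFRSF10A (1.84e-12), -0.65 for TNFRSF10B (2.27e-10), 2.65 for TNFSF10 (4.19e-20) and 1.18 for FADD (4.83e-07). It was 1.505 for CASP8 (1.15e-15), 2.00 for CFLAR (2.52e-18), 0.67 for BIRC2 (2.33e-09) and 1.90 for BIRC3 (2.61e-16). Each of these 9 kept its sign and passed under all 16 alternatives tried. The experiments also differ in medium, plasmid delivery and cisplatin treatment, and which of these the differences follow cannot be told apart.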

How the results depend on the processing

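Of 310 alternative values of the members' log2 fold changes, 287 kept direction and call, 20 kept direction but lost the call, and 3, all of XIAP in the resistance experiment, changed sign. A test for changes over 1.5-fold (edgeR's glmTreat) called fewer genes. With the plasmid, 3818 of 16950 genes, 5 of 10 members and 9 of 37 other pathway genes passed. In resistant cells, 2107 of 16875 genes, 4 of 10 members and 8 of 37 other pathway genes passed. With the plasmid, the other pathway genes thus passed at close to the share of all genes. The members that passed the 1.5-fold test were TNFSF10, TNFRSF10A, FADD, CASP8 and CFLAR with the plasmid, and TNFSF10, CASP8, CFLAR and BIRC3 in resistant cells. The XIAP change in resistant cells was 0.13 with library sizes alone, 0.068 with upper quartile factors and -0.081 to 0.0042 with each library left out. Its difference between experiments passed with library sizes alone (-0.29, edgeR adjusted p = 0.00444). The log2 ratio of CFLAR over CASP8 with the plasmid, -0.002 in the main analysis, ran from -0.012 to 0.013 with each library left out. With the replicate number as a block, 12070 genes were called in the overexpression experiment and all 10 members were, 8 higher and 2 lower, along with 34 other pathway genes. In the resistance experiment no paired analysis was possible because the numbers of the parental columns are tied to no sample. Depth limits FADD most, with 710 and 1160 counts summed over the vector and plasmid libraries.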

Other observations

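The protein-coding genes within 300 kb of CFLAR and CASP8 and of BIRC3 and BIRC2 were read after their values were seen. Those beside TNFRSF10A and TNFRSF10B, also within 300 kb of each other, were not analysed here. Next to BIRC3 and BIRC2 on chromosome 11, 4 other genes were tested in both experiments. Of these, 0 were called higher with the plasmid and lower in resistant cells, a pattern held by 16.6% of all 15655 genes tested in both. Genes this few at either locus cannot be set against that share. CFAP300 was called higher in both experiments. It stood at 1.64 and 2.53 CPM with vector and plasmid, and at 0.639 and 2.49 CPM in parental and resistant cells. MMP7, a secreted metalloprotease, was 4.92-fold higher in resistant cells (1.67 ± 0.342 against 8.21 ± 1.29 CPM; edgeR adjusted p = 9.65e-09), where BIRC3 was 3.25-fold lower. YAP1, a transcriptional coactivator, fell from 180.2 to 138 CPM there (log2 -0.38 ± 0.042; edgeR adjusted p = 4.92e-07), and TMEM123, at 416 and 439 CPM, was not called (edgeR adjusted p = 0.098). With the plasmid, TMEM123 fell from 526 to 420.0 CPM (log2 -0.32 ± 0.033; edgeR adjusted p = 1.73e-07), while BIRC3 and BIRC2 rose. Around CFLAR and CASP8 on chromosome 2, 11 other genes were tested in both experiments. Of these, 4 (CASP10, FAM126B, BZW1 and ORC2) were called higher with the plasmid and lower in resistant cells, 2 (CLK1 and NDUFB3) were called lower then higher, 1 (STRADB) was lower in both, and 4 were not called in at least 1 experiment. FAM126B went from 50.003 ± 1.02 to 59.9 ± 6.17 CPM with the plasmid (edgeR adjusted p = 0.000339) and from 44.0 ± 3.66 to 27.1 ± 1.39 CPM in resistant cells (edgeR adjusted p = 2.94e-07). TRAK2 fell from 58.8 ± 1.52 to 45.4 ± 1.24 CPM with the plasmid (edgeR adjusted p = 1.09e-07) and was not called in resistant cells (31.4 and 32.9 CPM; edgeR adjusted p = 0.499).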
